A study of Mus musculus with 22 samples.

Results

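The transcripts of 6 cytokine genes that attract or sustain myeloid cells and T cells, Ccl3, Ccl4, Ccl5, Cxcl9, Cxcl10 and Csf1, were followed through all groups of the series. The genes were chosen by name. All transcripts that the GENCODE mouse annotation assigns to them were summed per gene, which gave 14 transcripts for these 6 of the 17023 genes in the count table. The study had singled out these genes in spleen samples of the same experiment, so that their direction in the spleen comparison is not independent evidence.

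RNA was sequenced from 22 samples of TCL1-355 TKO cells, a murine leukemia line from the transgenic Eμ-TCL1 model of chronic lymphocytic leukemia, in which the TCL1 transgene is expressed in B cells. Cells of all groups carry biallelic loss-of-function lesions that include CDKN2A and CDKN2B, and a B-cell receptor with autoreactivity for phosphatidylcholine. The NFKBIE-ko cells had been edited in Nfkbie with a Cas9 ribonucleoprotein to remove the NF-κB inhibitor IκBε, whereas NFKBIE-wt cells went through a mock edit. The spleen and the peritoneal cavity (PC) were each sampled 4 times per genotype, and cultures in vitro 3 times per genotype. For the tissue groups, cells of each genotype were propagated separately for 21 days in C57BL/6 mice, injected into the PC of young adult C57BL/6 recipients and recovered on day 10. The recovered cells were not purified, so that the tissue samples hold leukemia cells together with the immune cells of an immunocompetent host. The recipients of a genotype share the propagated cells they were injected with, and the labels do not say which spleen and PC samples came from the same mouse. The in vitro groups were cells from spleens of different mice that were kept in culture for weeks before RNA isolation.

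Chemokines are small secreted proteins that guide leukocytes along a gradient by binding G protein-coupled receptors. Ccl3, Ccl4 and Ccl5 are CC chemokines that act on monocytes, macrophages and T cells, and they are made by activated B cells, T cells, NK cells and macrophages. Cxcl9 and Cxcl10 are interferon-inducible CXC chemokines that draw activated T cells and NK cells through Cxcr3, whereas Csf1 is the growth factor that keeps monocytes and macrophages alive through Csf1r. Several of these genes are known targets of NF-κB, the transcription factor family that IκBε restrains.

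On GRCm39, the genes lie at 3 places. Ccl5 (chr11:83416602-83425942, minus strand), Ccl3 (chr11:83538670-83540191, minus strand) and Ccl4 (chr11:83553383-83555509, plus strand) lie in the CC chemokine cluster, where Ccl3 and Ccl4 are 13191 bases apart on opposite strands. Cxcl9 (chr5:92469206-92475945) and Cxcl10 (chr5:92494497-92496748) are neighbours on the minus strand, 18551 bases apart, and Csf1 lies on the minus strand at chr3:107648364-107667806. The spans of genes on the opposite strand overlap those of Ccl3 (Gm53692), Ccl5 (Gm73713), Cxcl10 (Art3) and Csf1 (Gm40121). These are whole spans with introns, and whether exons overlap was not checked. Whether the counting used strand is not given in the sources used here, so that reads of any exon stretches they share might not be told apart.

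The RefSeq promoter table held 4 of the 6 genes, and 3 promoters are shown, those of Cxcl9 and Csf1, which were higher in NFKBIE-ko samples of both tissues, and that of Cxcl10, the neighbour of Cxcl9. Each runs from 250 bases before to 50 bases after the start site, on GRCm38.p6 and 5′ to 3′ on the minus strand, for Cxcl10 at chr5:92348840-92349139, for Csf1 at chr3:107760420-107760719 and for Cxcl9 at chr5:92328030-92328329. Capitals mark matches on either strand to the κB consensus, the motif bound by NF-κB, and to the letters GAAA repeated after 2 free bases, a core of interferon-stimulated response elements.
Cxcl10: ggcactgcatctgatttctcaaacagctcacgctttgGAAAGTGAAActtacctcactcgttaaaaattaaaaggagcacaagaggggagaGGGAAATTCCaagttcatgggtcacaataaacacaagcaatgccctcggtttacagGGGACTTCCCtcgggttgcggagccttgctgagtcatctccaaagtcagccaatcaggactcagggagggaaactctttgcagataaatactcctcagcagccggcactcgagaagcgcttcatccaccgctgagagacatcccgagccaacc
Csf1: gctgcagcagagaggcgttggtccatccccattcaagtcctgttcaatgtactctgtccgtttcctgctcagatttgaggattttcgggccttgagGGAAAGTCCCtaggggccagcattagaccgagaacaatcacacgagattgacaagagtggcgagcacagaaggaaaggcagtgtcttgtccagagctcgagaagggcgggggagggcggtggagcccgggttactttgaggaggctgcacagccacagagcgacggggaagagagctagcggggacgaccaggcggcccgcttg
Cxcl9: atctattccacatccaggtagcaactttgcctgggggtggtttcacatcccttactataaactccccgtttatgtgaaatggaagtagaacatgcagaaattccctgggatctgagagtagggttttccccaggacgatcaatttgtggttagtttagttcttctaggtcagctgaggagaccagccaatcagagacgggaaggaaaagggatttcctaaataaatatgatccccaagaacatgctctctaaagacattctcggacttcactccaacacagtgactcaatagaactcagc
In the Cxcl10 promoter the first run of capitals is the match to the repeated GAAA, at -213 to -204 from the start site, and the next are κB matches at -159 to -150 and -103 to -94. The Csf1 promoter has 1 κB match on the reverse strand, at -154 to -145. The Cxcl9 and Ccl3 windows hold no match to either motif, and TTCNNNGAA, the spacing bound by STAT dimers, was found in 0 of the 4 promoters. Of 32851 mouse promoters of the same length, 4.51% hold a κB match, 3.44% hold the repeated GAAA and 8.3% hold TTCNNNGAA. No motif overlaps another in these windows.

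Each library had a total of 24036386 to 26580957 estimated counts, and levels are given as CPM, counts relative to the TMM-scaled library total. At this depth a count of 0 allows up to 3 counts, about 0.115 to 0.121 CPM, and this limit covers counting error only. The level of Nfkbie, the edited gene, was 85.7 ± 25.3 CPM (SD, n = 4) in NFKBIE-wt and 98.1 ± 29.8 (n = 4) in NFKBIE-ko spleens, 78.7 ± 9.92 and 53.4 ± 8.37 (n = 4 each) in the PC, and 103 ± 44.4 and 54.4 ± 6.02 (n = 3 each) in vitro. An edit within the coding sequence can leave the transcript in place, so that this level does not check the labels. The 7 B-cell markers summed to 1651 to 3710 CPM over the 22 libraries. Tissue replicates came from recipients of the same group and cultures from different mice, as the series describes, and p-values measure the spread between these samples.

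Among the NFKBIE-wt samples, 2 libraries went against their labels. The NFKBIE-wt library labelled spleen replicate 4 had 0 counts of the macrophage gene C1qa, 41 of Lyz2 and 3 of the T-cell receptor gene Cd3e, where the other NFKBIE-wt spleens had 80 to 160, 254 to 1183 and 26 to 51. Across 11281 genes, its log2 levels correlated at 0.913 with the mean of the other NFKBIE-wt spleens and at 0.977 with that of the NFKBIE-wt cultures. The NFKBIE-wt library labelled in vitro replicate 3 had 169 counts of C1qa and 68 of Cd3e, where the other NFKBIE-wt cultures had 0 to 2 and 1 to 17. It correlated at 0.975 with the mean of the NFKBIE-wt spleens and at 0.905 with that of the other NFKBIE-wt cultures. The means behind 0.977 and 0.975 include the other of these 2 libraries. The labels were kept, and the tests of the genes that these libraries enter were also run without them, a choice made after the data were seen.

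**Figure D1:**
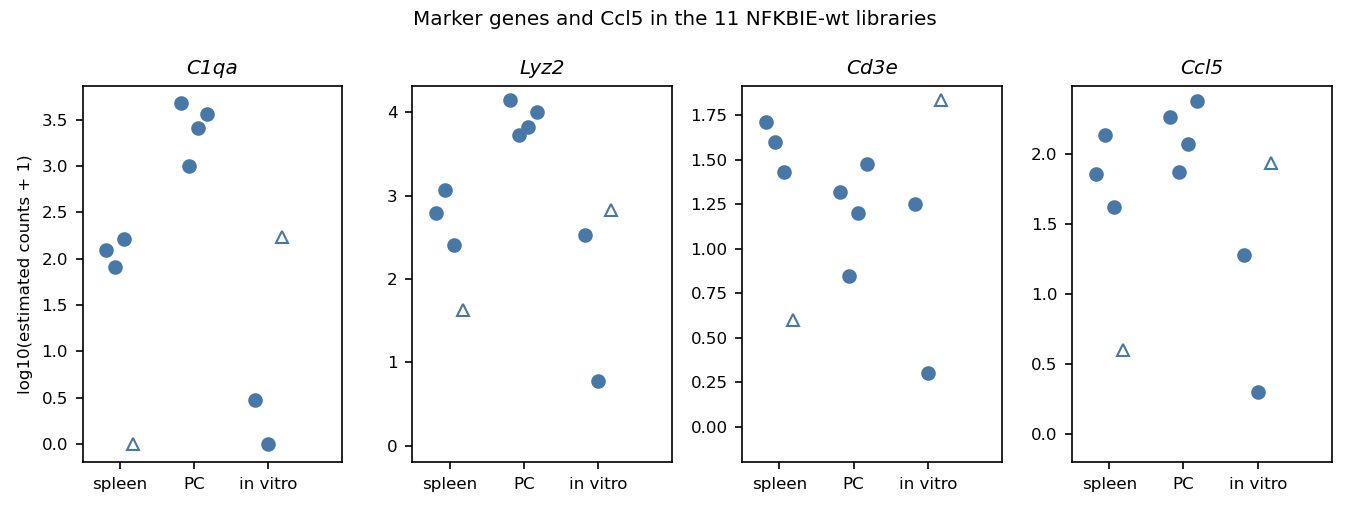
Estimated counts of C1qa, Lyz2, Cd3e and Ccl5 in the 11 NFKBIE-wt libraries, as log10(count + 1) on the vertical axis, by labelled compartment. Open triangles are the libraries labelled spleen replicate 4, with 0 counts of C1qa, and in vitro replicate 3, with 169, and filled circles are the other libraries.

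The baseline was read from the NFKBIE-wt samples. In these samples, which in the tissues hold host cells too, the 3 CC chemokine genes had their highest means in the PC and their lowest in vitro. Cxcl10 had its lowest mean in the PC, Csf1 was nearly level and Cxcl9 was close to 0 in all compartments. Levels of different genes were compared per kilobase of transcript. In NFKBIE-wt PC samples the order was Ccl5 at 11.6 ± 5.99, Ccl3 at 7.35 ± 3.35, Ccl4 at 4.91 ± 2.32, Csf1 at 1.87 ± 0.328, Cxcl10 at 1.02 ± 0.873 and Cxcl9 at 0.0394 ± 0.0616 CPM per kb (SD, n = 4). In NFKBIE-wt cultures Cxcl10 led with 3.23 ± 1.82 CPM per kb, followed by Ccl5 at 2.44 ± 3.08, Csf1 at 2.41 ± 0.514, Ccl3 at 2.04 ± 1.85, Ccl4 at 0.516 ± 0.435 and Cxcl9 at 0.0214 ± 0.0371 (SD, n = 3), and the first 4 lay within these SDs of each other. Without the library labelled in vitro replicate 3 the order in culture was Cxcl10 at 3.63, Csf1 at 2.70, Ccl3 at 1.14, Ccl5 at 0.693 and Ccl4 at 0.286 CPM per kb, so that Ccl5 went from the second place to the fourth.

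Ccl4, a chemoattractant of monocytes and T cells, was the 1 gene called between NFKBIE-wt compartments. Its level was 2.53, 3.71, 1.79 and 5.45 CPM in NFKBIE-wt PC replicates 1 to 4, 0.875, 0.932, 0.466 and 0.154 in NFKBIE-wt spleens, and 0.316, 0.0768 and 0.671 in NFKBIE-wt cultures. Every PC sample lay above every spleen and culture sample. The log2 fold change of spleen over PC was -2.48 (SE 0.69, adjusted p = 0.0277), and that of PC over in vitro was 3.25 (SE 0.81, adjusted p = 0.0214), by the quasi-likelihood test of edgeR, adjusted over 13195 genes by the method of Benjamini and Hochberg. Calls needed an adjusted p under 0.05 together with a log2 fold change above 1 or below -1. Thus 1 of 5 genes tested was lower in spleen than in PC, against 5.80% of all genes, and 0 of 5 were higher, against 2.78%. Between PC and in vitro, 1 of 5 was higher, against 4.59% of all genes, and 0 were lower, against 3.21%. The 10 macrophage markers summed to 559 to 1694 CPM in the same PC samples, to 25.0 to 80.4 in the spleens and to 33.6 to 72.2 in the cultures, and 9 of 10 were lower in spleen than in PC, and their part in the level of Ccl4 was not tested. The call of Ccl4 in spleen over PC was lost without NFKBIE-wt PC replicate 1, 2 or 4 or spleen replicate 1 or 3 (adjusted p of 0.0524 to 0.0803, edgeR), and that in PC over in vitro without NFKBIE-wt in vitro replicate 1 or 2 or PC replicate 4 (0.0533 to 0.0716). Both were also lost by transcript, at an adjusted p of 0.0860 and 0.0681 by edgeR. Without both doubted libraries Ccl4 was called in these comparisons, at -2.16 (adjusted p = 0.0158) and 4.08 (adjusted p = 0.00303) in the same edgeR test, among 8.21% and 10.8% of genes called in those directions, and 0 were called in the opposite ones, against 4.06% and 5.49%.

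Ccl3 and Ccl5 followed the same order of means without passing the test. Ccl3 had 4.94, 8.96, 2.72 and 6.17 CPM in NFKBIE-wt PC samples, 2.51, 3.16, 1.67 and 0.386 in spleens and 1.66, 0.115 and 2.98 in cultures. Ccl5 had 7.35, 2.88, 4.51 and 10.2 CPM in the PC, 2.82, 5.51, 1.59 and 0.116 in spleens and 0.711, 0.0384 and 3.17 in cultures. By edgeR, Ccl3 differed by -1.57 (adjusted p = 0.185) in spleen over PC and by 1.87 (adjusted p = 0.166) in PC over in vitro, and Ccl5 by -1.33 (adjusted p = 0.397) and 2.28 (adjusted p = 0.207). In both genes the spleen and PC ranges overlapped, the lowest spleen was the library labelled replicate 4 and the highest culture was the library labelled replicate 3. Without these libraries, Ccl3 at 2.68 (adjusted p = 0.0363) and Ccl5 at 4.05 (adjusted p = 0.0122) were also higher in PC than in vitro by edgeR's test, which made 3 of 5 genes. Spleen and in vitro differed in 0 of the 5 genes with all libraries, with 0 at an unadjusted p under 0.05 and 0 by DESeq2. Of all genes in that comparison, edgeR called 0 higher and 0 lower, with 435 at an unadjusted p under 0.05. Without the doubted libraries 5.30% of all genes were higher and 4.28% lower, but 0 of the 5, with Ccl5 nearest at 3.13 (adjusted p = 0.0578).

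Cxcl10 in NFKBIE-wt samples was 3.58, 3.65, 2.37 and 1.78 CPM in spleens, 1.04, 2.61, 0.350 and 0.681 in the PC and 5.88, 2.15 and 2.91 in cultures, so that the PC held its 3 lowest values. Its log2 difference of PC over in vitro was -1.62 (adjusted p = 0.0907) and of spleen over PC 1.27 (adjusted p = 0.145) by edgeR. Csf1 was 9.43, 5.71, 5.59 and 9.54 CPM in spleens, 8.12, 7.62, 6.77 and 6.13 in the PC and 9.91, 9.72 and 6.86 in cultures, with overlapping ranges throughout and adjusted p of at least 0.443 in each of the 3 edgeR comparisons. Cxcl9 had 11, 7, 3 and 0 counts in NFKBIE-wt spleens, 2, 0, 0 and 2 in the PC and 0, 0 and 5 in cultures. The 5 counts in culture came from the library labelled in vitro replicate 3. Cxcl9 was below the filter on low counts in this fit and was not tested.

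**Figure D2:**
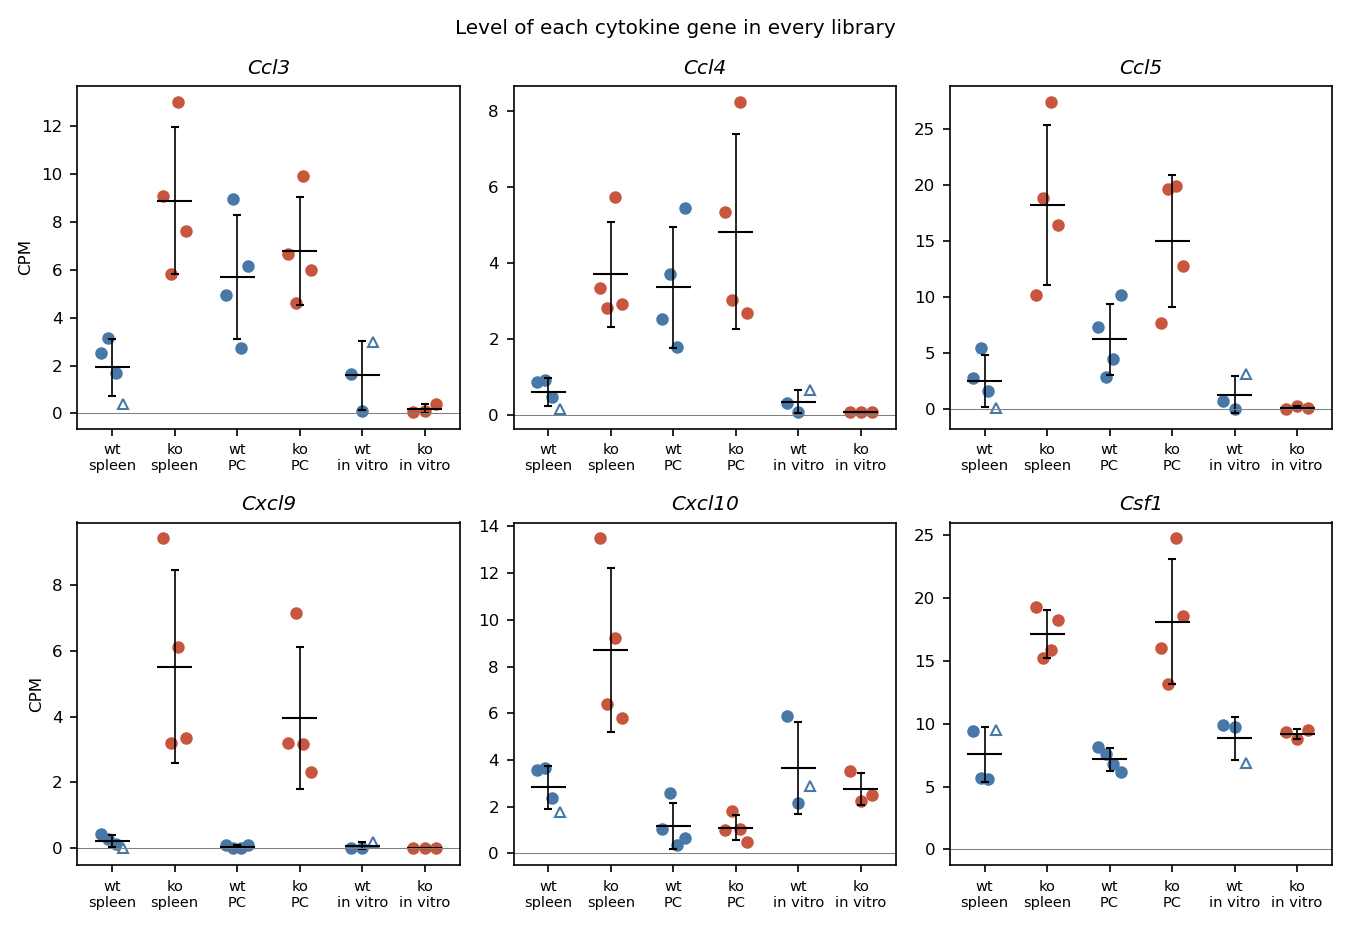
Level of each of the 6 genes in every library, in CPM on a linear axis from 0, by group. Points are libraries, bars are means with SD as error bars, and open triangles are the 2 libraries that went against their labels. NFKBIE-ko spleens reached 13.0 CPM of Ccl3, 27.5 of Ccl5 and 9.43 of Cxcl9, and the NFKBIE-ko cultures had 0 CPM of Cxcl9.

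In the spleen, 4 of 6 genes were called higher in NFKBIE-ko samples, against 1.33% of 12416 genes tested. All 6 were higher in every NFKBIE-ko than in every NFKBIE-wt library. The share of all genes that separate in this way was not counted, so that this number has no baseline. None was lower, against 1.55% of all genes. The median log2 fold change of NFKBIE-ko over NFKBIE-wt was 2.41 for the 6 genes and -0.00352 for all genes. Bulk RNA cannot tell more cells of a type from more RNA per cell, here and in the results that follow.

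Cxcl9, which draws activated T cells through Cxcr3, showed the widest difference. Its level was 9.43, 3.18, 6.11 and 3.33 CPM in NFKBIE-ko spleens, against 0.438, 0.284, 0.116 and 0 in NFKBIE-wt spleens. The summed counts were 573 and 21, a ratio of 26.7 (95% counting interval 17.3 to 43.5), and the fitted log2 fold change was 4.70 (SE 0.81, adjusted p = 0.0162, edgeR). Cxcl10, the second ligand of Cxcr3 here, had 13.5, 6.40, 9.20 and 5.79 CPM against 3.58, 3.65, 2.37 and 1.78, a log2 fold change of 1.62 (SE 0.35, adjusted p = 0.0350, edgeR). The lowest NFKBIE-ko spleen thus held 5.79 CPM of Cxcl10 and the highest NFKBIE-wt spleen 3.65.

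Ccl4 rose from 0.607 ± 0.366 CPM in NFKBIE-wt to 3.71 ± 1.38 in NFKBIE-ko spleens (SD, n = 4 each), with NFKBIE-ko replicates at 3.35, 2.83, 5.76 and 2.92 and a log2 fold change of 2.61 (SE 0.54, adjusted p = 0.0312, edgeR). Ccl3, a ligand of Ccr1, had 9.09, 5.81, 13.0 and 7.61 CPM in NFKBIE-ko spleens against 1.93 ± 1.20 (SD, n = 4) in NFKBIE-wt. Its log2 difference of 2.20 (SE 0.55) missed the threshold at an adjusted p of 0.0538 by edgeR. Ccl5, a ligand of Ccr1 and Ccr3, had 10.2, 18.9, 27.5 and 16.4 CPM against 2.51 ± 2.28 (SD, n = 4), a log2 difference of 2.86 (SE 0.78) that also missed it, at 0.0749 by edgeR. Both were called by DESeq2, at an adjusted p of 0.000494 for Ccl3 and 0.0168 for Ccl5, and in the edgeR fit of all 22 samples, at 0.0299 and 0.0252. In both genes the lowest NFKBIE-wt value was that of the library labelled replicate 4. Per kilobase, Ccl5 was the most abundant of the 6 transcripts in NFKBIE-ko spleens at 34.1 ± 13.4 CPM per kb, followed by Ccl3 at 11.5 ± 3.97 (SD, n = 4), and the means of Cxcl10, Ccl4, Csf1 and Cxcl9 lay between 2.06 and 7.81.

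Csf1, the macrophage growth factor, had the smallest log2 fold change of the 6 genes and the smallest SE. NFKBIE-ko spleens had 19.3, 15.2, 15.9 and 18.2 CPM, against 9.43, 5.71, 5.59 and 9.54, which gave a log2 fold change of 1.18 (SE 0.22, adjusted p = 0.0213, edgeR). Its transcript Csf1-201, of 4197 bases, held 79.5% of the counts of the gene over all libraries and Csf1-202 held 13.9%. The highest NFKBIE-wt value, 9.54 CPM, was that of the library labelled replicate 4, which for this gene lay on the side of the NFKBIE-ko samples.

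Without the NFKBIE-wt library labelled spleen replicate 4, 6 of 6 genes were higher in NFKBIE-ko spleens, against 2.86% of all genes, and 0 lower, against 3.26%, with a median log2 fold change of 2.07. Ccl3 was then at 1.86 (SE 0.34, adjusted p = 0.0107) and Ccl5 at 2.46 (SE 0.46, adjusted p = 0.0119), by edgeR. Ccl4 was at 2.29, Cxcl9 at 4.28, Cxcl10 at 1.45 and Csf1 at 1.31, with adjusted p of 0.0032 to 0.0274 by edgeR. Other single libraries moved the count as well. It was 2 without NFKBIE-wt replicate 1, 3 without NFKBIE-wt replicate 2, 1 without NFKBIE-ko replicate 4, and 0 without NFKBIE-wt replicate 3, NFKBIE-ko replicate 1 or NFKBIE-ko replicate 3, where the adjusted p of the 4 genes rose to at most 0.111 and no direction changed.

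Markers of other cells moved in the same spleens, where 1.33% of all genes tested were called higher and 1.55% lower. Of 8 tested markers of cytotoxic and NK cells, 4 were higher in NFKBIE-ko spleens (Gzmb, Gzmk, Nkg7 and Prf1), and the summed level of all 9 listed was 43.1 to 109 CPM against 2.97 to 12.6 in NFKBIE-wt. Of 10 T-cell markers, 1 was higher (Cd8a), with sums of 230 to 332 against 143 to 231 CPM. Of 9 tested macrophage markers, 0 were called, with 5 at an unadjusted p under 0.05 and sums of 80.3 to 312 against 25.0 to 80.4 CPM. Of 6 dendritic cell markers, 1 was higher (Xcr1), with sums of 13.2 to 24.2 against 6.87 to 10.5 CPM. Without the NFKBIE-wt library labelled spleen replicate 4, the called markers of these lists were 5 of 8, 3 of 10, 2 of 10 and 1 of 6. Of all genes, 2.86% were then called higher and 3.26% lower. The NFKBIE-wt sums of these lists started at 11.7, 156, 47.9 and 6.87 CPM. In cultures the dendritic sum was 16.4 to 18.1 CPM in NFKBIE-ko against 8.72 to 10.8 in NFKBIE-wt, and the T-cell sum 192 to 212 against 121 to 284. Sums of these 2 lists were thus not particular to tissue samples. The part of other cells in the difference of the 6 genes was not tested.

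In the PC, 3 of 6 genes were higher in NFKBIE-ko samples, against 9.85% of 12832 genes tested, and 0 were lower, against 3.50%. The median log2 fold change was 0.89 for the 6 genes. Cxcl9 had 3.20, 7.15, 3.16 and 2.31 CPM in NFKBIE-ko and 0.0804, 0, 0 and 0.0851 in NFKBIE-wt PC samples. In counts this was 401 against 4 over the groups, a ratio of 98.4 with a 95% counting interval of 38.1 to 363. The gene was thus near the detection limit in every NFKBIE-wt and well above it in every NFKBIE-ko PC sample, with a fitted log2 fold change of 6.44 (SE 0.66, adjusted p = 4.45e-05, edgeR).

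Csf1 had 16.02, 13.2, 24.8 and 18.6 CPM in NFKBIE-ko and 8.12, 7.62, 6.77 and 6.13 in NFKBIE-wt PC samples, without overlap, and a log2 fold change of 1.33 (SE 0.19, adjusted p = 0.000334, edgeR). Ccl5 had 7.73, 19.6, 19.9 and 12.8 against 7.35, 2.88, 4.51 and 10.2 CPM. Its groups overlapped, and the log2 fold change of 1.26 (SE 0.44) had an adjusted p of 0.0476 by edgeR. The calls of Cxcl9 and Csf1 held when any 1 PC library was left out, with log2 fold changes of 5.99 to 6.97 and 1.15 to 1.46, whereas that of Ccl5 was lost without NFKBIE-wt replicate 1, 2 or 3 or NFKBIE-ko replicate 2, 3 or 4, at an adjusted p of 0.0707 to 0.124. The call of Ccl5 was also lost without the filter on low counts (adjusted p = 0.0764, edgeR) and by transcript (0.102). It was lost as well with the replicate number as a block (0.145) and in the fit of all 22 samples (0.260).

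The other 3 genes overlapped between the genotypes in the PC. Ccl3 was at 6.67, 4.60, 9.94 and 5.99 CPM in NFKBIE-ko samples, and its log2 difference from NFKBIE-wt was 0.25 (SE 0.35, adjusted p = 0.598, edgeR). Ccl4 was at 5.35, 3.02, 8.26 and 2.70 CPM, with 0.52 (SE 0.43, adjusted p = 0.369, edgeR). Cxcl10 was at 1.02, 1.81, 1.05 and 0.509 CPM, with -0.10 (SE 0.57, adjusted p = 0.907, edgeR). Cxcl9 and Cxcl10, which share the receptor Cxcr3, thus had fitted differences of 6.44 and -0.10 in the PC, a gap between genes that was not tested.

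Listed markers of other cell types moved in the PC as well, where 9.85% of all genes tested were called higher and 3.50% lower. Of 10 macrophage markers, 8 were higher in NFKBIE-ko PC samples, and their sum was 3721 to 5474 CPM against 559 to 1694. Of 10 T-cell markers 7 were higher, with sums of 391 to 458 against 243 to 315 CPM, and of 9 cytotoxic and NK markers 7 were higher and 1 lower, with sums of 39.9 to 65.9 against 14.3 to 37.8 CPM. Of 6 tested granulocyte markers 4 were lower, with sums of 28.3 to 44.1 against 125 to 393 CPM. Of 4 tested dendritic cell markers 1 was higher, with sums of 9.98 to 13.98 against 6.59 to 9.79 CPM. The part of these cells in the levels of Cxcl9, Csf1 and Ccl5 was not tested.

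In vitro, Cxcl10 and Csf1 were above 2 CPM in every culture of both genotypes, and Ccl3 and Ccl5 exceeded 2 CPM in the NFKBIE-wt library labelled in vitro replicate 3 alone. Cxcl10 was at 3.55, 2.23 and 2.50 CPM in NFKBIE-ko and 5.88, 2.15 and 2.91 in NFKBIE-wt cultures, with a log2 difference of -0.40 (SE 0.44, adjusted p = 0.708, edgeR). Csf1 was at 9.37, 8.75 and 9.48 against 9.91, 9.72 and 6.86 CPM, with 0.06 (SE 0.18, adjusted p = 0.906, edgeR). Both genes overlapped between the genotypes. Ccl3 was at 0.0747, 0.115 and 0.410 CPM in NFKBIE-ko cultures and at 1.66, 0.115 and 2.98 in NFKBIE-wt cultures, with -2.99 (SE 1.19, adjusted p = 0.531, edgeR).

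The remaining genes were below the filter on low counts in vitro. Ccl4 was at 0.0747 to 0.0821 CPM in the 3 NFKBIE-ko cultures and at 0.0768 to 0.671 in NFKBIE-wt cultures. Ccl5 was at 0.0373 to 0.269 CPM against 0.0384 to 3.17, and Cxcl9 was at 0 in all NFKBIE-ko cultures. The highest NFKBIE-wt value of Ccl3, Ccl4, Ccl5 and Cxcl9 was that of the library labelled in vitro replicate 3. Of 3 genes tested, 0 were called higher, against 0.0336% of all genes, and 0 lower, against 0%, with 1 at an unadjusted p under 0.05, Ccl3, and 0 called by DESeq2. Without that library the count was also 0 of 3, against 0.0580% higher and 0.0166% lower, and Ccl3 was at -2.14 (adjusted p = 0.614, edgeR). In NFKBIE-ko cultures the 10 macrophage markers summed to 33.0 to 42.1 CPM and the 10 T-cell markers to 192 to 212 CPM, so that other members of these lists were present. The macrophage markers C1qa, C1qc, Cd14 and Fcgr1, the T-cell markers Cd8a, Cd8b1 and Cd28 and the cytotoxic and NK markers Gzma, Klrd1 and Eomes were at 0 in each of these libraries.

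**Figure D3:**
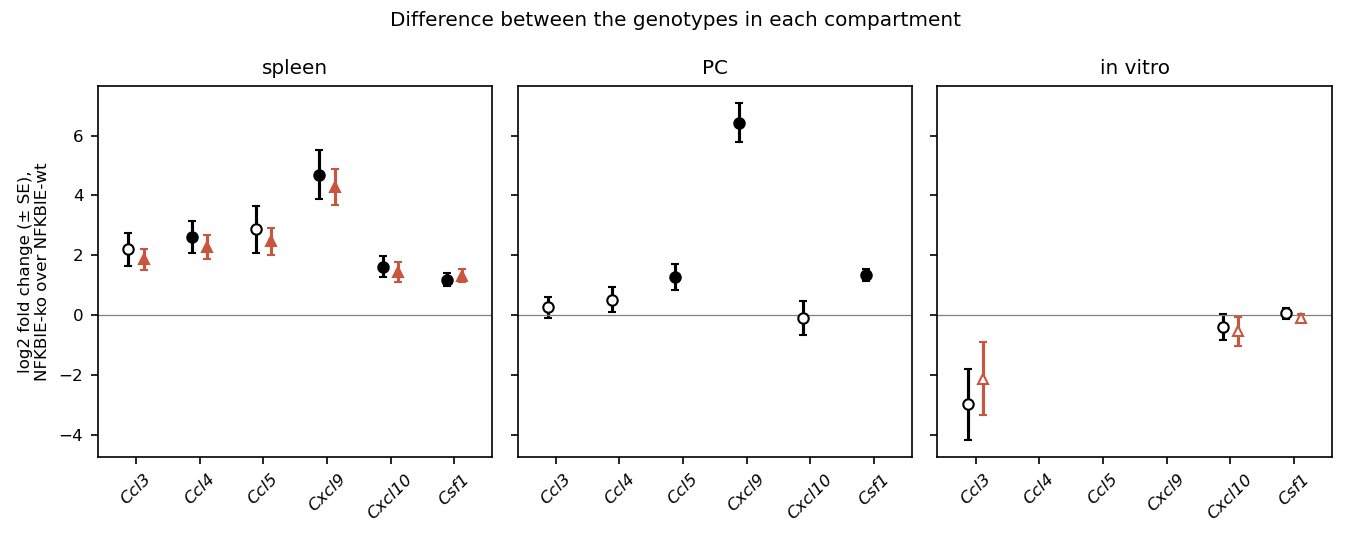
Log2 fold change of NFKBIE-ko over NFKBIE-wt with its SE for each gene in the spleen, the PC and in vitro. Filled symbols were called by edgeR, black circles are fits of all libraries and red triangles fits without the library that went against its label. Cxcl9 reached 4.70 in the spleen and 6.44 in the PC, and Csf1 1.18, 1.33 and 0.06 in the 3 compartments.

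The order of the 6 groups differed between the genes. Ccl3 ran from NFKBIE-ko spleen at 8.89 ± 3.08 CPM through NFKBIE-ko PC at 6.80 ± 2.27 and NFKBIE-wt PC at 5.70 ± 2.60 (SD, n = 4 each) to NFKBIE-wt spleen, NFKBIE-wt in vitro and NFKBIE-ko in vitro at 0.200 ± 0.183 (SD, n = 3), and every pair of neighbours overlapped. Ccl4 ran from 4.83 ± 2.57 CPM in NFKBIE-ko PC through NFKBIE-ko spleen to 3.37 ± 1.60 in NFKBIE-wt PC (SD, n = 4 each), and then dropped without overlap to NFKBIE-wt spleen and the cultures, which overlapped. Ccl5 ran from 18.3 ± 7.15 CPM in NFKBIE-ko spleen through 15.02 ± 5.88 in NFKBIE-ko PC and 6.23 ± 3.21 in NFKBIE-wt PC (SD, n = 4 each) to 0.129 ± 0.123 in NFKBIE-ko cultures (SD, n = 3), with all neighbours overlapping.

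Cxcl9 and Csf1 each split into a higher pair and a lower set. Cxcl9 was at 5.51 ± 2.94 CPM in NFKBIE-ko spleen and 3.96 ± 2.17 in NFKBIE-ko PC (SD, n = 4 each), and the next group, NFKBIE-wt spleen at 0.209 ± 0.192, did not overlap with either. Csf1 was at 18.1 ± 4.95 CPM in NFKBIE-ko PC and 17.2 ± 1.92 in NFKBIE-ko spleen (SD, n = 4 each), and the other 4 groups lay between 7.16 and 9.20 CPM by their means, without overlap with the upper pair. Cxcl10 was highest in NFKBIE-ko spleen at 8.72 ± 3.51 CPM (SD, n = 4), whose lowest library, 5.79, lay just under the highest culture, 5.88, and both PC groups were at the bottom, at 1.17 ± 0.998 and 1.10 ± 0.535.

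Whether the NFKBIE-ko effect itself differed between compartments was tested with interaction terms in 1 edgeR fit of all 22 samples. Between spleen and PC, 0 of 6 genes were called (adjusted p of at least 0.118), with 3 at an unadjusted p under 0.05 and 0 by DESeq2, against 0.428% of 13801 genes with a higher and 1.43% with a lower effect in the spleen. Between spleen and in vitro the effect was higher in the spleen for Ccl3, by 5.19 (SE 1.11, adjusted p = 0.0480), and for Ccl4, by 4.74 (SE 0.98, adjusted p = 0.0448), on the log2 scale, against 0.188% of all genes. Between PC and in vitro it was higher in the PC for Csf1, by 1.29 (SE 0.31, adjusted p = 0.0278), and for Cxcl9, against 2.87% of all genes. The fitted 10.25 of Cxcl9 (SE 2.30, adjusted p = 0.0244) rests on the 5 counts of the NFKBIE-wt library labelled in vitro replicate 3.

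These calls depended on single libraries. That of Csf1 between PC and in vitro was lost without NFKBIE-ko in vitro replicate 1, 2 or 3 (adjusted p of 0.0740 to 0.0805, edgeR), without PC replicate 3 of NFKBIE-wt (0.0521) or NFKBIE-ko (0.0519) and by transcript (0.317). Without both doubted libraries, the effect on Csf1 was higher in the PC than in vitro by 1.43 (SE 0.30, adjusted p = 0.0118), against 2.94% of all genes, and higher in the spleen than in vitro by 1.42 (SE 0.31, adjusted p = 0.0419), against 0.428%, in the edgeR fit. Ccl3 at 4.02 (adjusted p = 0.0638) and Ccl4 at 3.58 (adjusted p = 0.0915) were no longer past the threshold between spleen and in vitro. Without both libraries 0 genes were called between spleen and PC, against 0.862% higher and 2.44% lower, and 0 had a lower effect in spleen or PC than in vitro, against 0.228% and 0.492%. Cxcl9 was then at 0 in every culture of both genotypes, so that its difference could not be estimated.

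The levels were then set beside a macrophage gene, Adgre1, which encodes the marker F4/80, and the T-cell gene Cd3e. In the 16 tissue samples, log2(CPM + 0.5) was correlated after the mean of each of the 4 groups was taken off, with permutation within groups (100000 resamples, two-sided) and Benjamini-Hochberg adjustment over 12 relations. Ccl5 went with Cd3e (r = 0.911, permutation p = 0.00035, adjusted p = 0.0042; rho = 0.897, adjusted p = 0.00276). Without the 2 samples farthest in Cd3e r was 0.849, and without the NFKBIE-wt library labelled spleen replicate 4 it was 0.824 (adjusted permutation p = 0.0229) over 15 samples. In NFKBIE-ko PC samples, for example, Cd3e was at 1.06, 2.44, 2.95 and 1.64 CPM in replicates 1 to 4, and Ccl5 at 7.73, 19.6, 19.9 and 12.8. If spleen and PC samples share mice, the 16 samples are not all independent.

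The other 11 relations did not pass (adjusted permutation p of at least 0.408), and r with Adgre1 ranged from -0.566 for Ccl3 to 0.314 for Csf1. Without the NFKBIE-wt library labelled spleen replicate 4, r with Adgre1 was -0.143 for Ccl3, 0.0272 for Csf1 and 0.500 for Cxcl9, with adjusted permutation p of at least 0.439. By rank, Cxcl9 and Adgre1 then had rho = 0.595 (permutation p = 0.00391, not adjusted). Over all 16 samples their rho was 0.249 (adjusted permutation p = 0.639). Adgre1 was an uneven marker in this series. Its level was 20.5 to 28.6 CPM in NFKBIE-ko cultures, where C1qa was at 0, 1.78 to 2.31 CPM in NFKBIE-wt spleens apart from the library labelled replicate 4 at 12.8, and 195 to 295 CPM in NFKBIE-ko PC samples. When the mean of the 10 macrophage markers was used in place of Adgre1, the sign turned for 5 of the 6 genes and Cxcl9 passed (r = 0.668, adjusted permutation p = 0.00558). When the mean of the T-cell markers replaced Cd3e, Ccl3 (r = 0.774) and Ccl4 (r = 0.673) passed beside Ccl5 (r = 0.930), with adjusted permutation p of 0.0294, 0.0157 and 0.00096. Both marker means were used with the NFKBIE-wt library labelled spleen replicate 4 included, and their values without it are not given here. With Cd3e itself, leaving that library out took r from 0.452 to -0.0333 for Ccl3, from 0.469 to 0.279 for Ccl4 and from 0.911 to 0.824 for Ccl5. On CPM without a log, the relation of Ccl5 and Cd3e had r = 0.664 and did not pass (adjusted permutation p = 0.179).

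Among the 15 pairs of the 6 genes, tested in the same way, those that lie side by side in the genome went together. Ccl3 and Ccl4 had r = 0.834 (adjusted permutation p = 0.00375; rho = 0.879), 0.811 without the 2 farthest samples and 0.824 without the NFKBIE-wt library labelled spleen replicate 4. Cxcl9 and Cxcl10 had r = 0.670 (adjusted permutation p = 0.0155; rho = 0.726), and 0.498 without the 2 farthest samples. Without the NFKBIE-wt library labelled spleen replicate 4, their r was 0.637 (adjusted permutation p = 0.0462), and 0.939 when the 2 farthest of the remaining samples were also left out. The other 13 pairs had adjusted permutation p of at least 0.119.

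**Figure D4:**
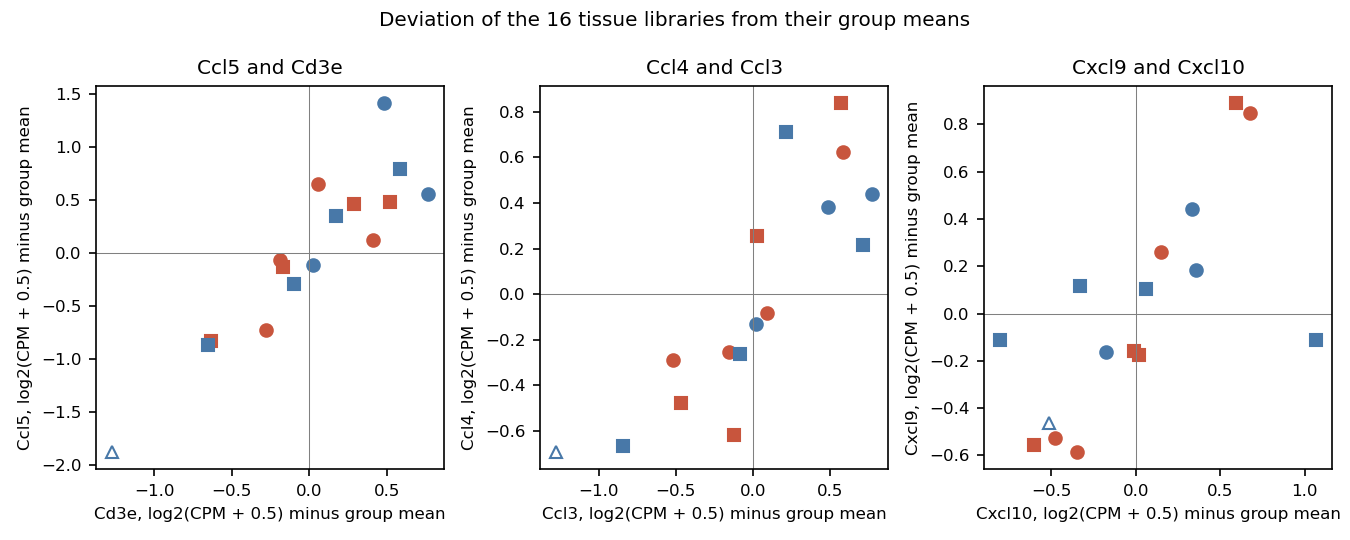
Deviations from the group mean of log2(CPM + 0.5) in the 16 tissue libraries, for Ccl5 against Cd3e, Ccl4 against Ccl3 and Cxcl9 against Cxcl10. Circles are spleens, squares PC samples, blue NFKBIE-wt, red NFKBIE-ko, and the open triangle is the NFKBIE-wt library labelled spleen replicate 4. The points rise together in each panel, with r of 0.911, 0.834 and 0.670.

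As a description, the genes most like each member in level were sought over all 22 samples, which includes the group differences, among 11720 genes with a mean of at least 1 CPM. Ccl5 was nearest to Ms4a4b (r = 0.977), Nkg7 (0.972) and Prkch (0.959), and Ccl3 to Adgre4, Nkg7 and Prkch (0.936 to 0.940). Ccl4 was nearest to Gzma (0.943), Cd300c2 (0.927) and As3mt (0.924). Cxcl9 was nearest to Gsdmd (0.953), Gzmk (0.942) and Ccrl2 (0.915), and Cxcl10 to Dnaja1 (0.919), Gtf2e2 (0.901) and Hspa8 (0.898). Csf1 had no gene above 0.848, the value of Traf5. With the group means taken off, Ccl5 was nearest to the T-cell receptor gene Trbc2 (0.962, and 0.920 over the 20 samples without the doubted libraries), and Ccl3 to Bud23 (0.912, and 0.843). The nearest genes of Ccl4 were then H2ac24, Prkcsh and Gm53012 (0.762 to 0.785), and those of Cxcl9 were Dock1, Pa2g4 and Fndc3b (0.797 to 0.862). Gzma, Gsdmd and Gzmk were not among them. Cxcl10 was nearest to Hspa5 (0.770) and Csf1 to Ttc41 (0.751). These values have no test.

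Receptors of the 6 proteins were read in the same fits. In the PC, Ackr2, a decoy receptor that clears CC chemokines, rose by 3.81 on the log2 scale (adjusted p = 2.06e-05), from 0.423 to 6.05 CPM by the group means. Cxcr3 rose by 3.37 (adjusted p = 1.03e-05), from 0.783 to 8.14 CPM, and Csf1r by 1.41 (adjusted p = 0.00174), from 49.6 to 133 CPM, each by edgeR. Ccr1 rose by 1.25 (adjusted p = 0.0024, edgeR), and Ccr3 was below the filter. In the spleen Ackr2, Ccr1, Cxcr3 and Csf1r were not called by edgeR, and of these Csf1r had an unadjusted p under 0.05. Csf1r was at 2.02 (adjusted p = 0.135) there and at 1.63 (adjusted p = 0.0427) without the NFKBIE-wt library labelled spleen replicate 4, by edgeR. In vitro these 4 were not called either. Ackr2 was at 1.77 (adjusted p = 0.454) and Cxcr3 at 1.72 (adjusted p = 0.479) by edgeR, both with an unadjusted p under 0.05. Neither overlapped between the genotypes, but the share of all genes that separate in this way among these few cultures was not counted.

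Of the other chemokines and colony-stimulating factors, 27 of 31 listed genes were in the table and were counted in the same way. In the spleen 0 of 9 tested genes were called by edgeR, with 0 at an unadjusted p under 0.05. In the PC 5 of 14 were higher in NFKBIE-ko samples, against 9.85% of all genes, led by the monocyte chemoattractants Ccl12, at 2.50 (adjusted p = 0.00193), and Ccl8, at 2.47 (adjusted p = 0.0146), and 1 was lower, against 3.50%, the neutrophil chemoattractant Cxcl2, at -1.99 (adjusted p = 0.0257, edgeR). In vitro 0 of 5 were called, with 0 at an unadjusted p under 0.05.

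Lists of targets of the pathways that induce these genes were counted as well. Of 16 tested genes induced by interferon-γ, 3 were higher in NFKBIE-ko spleens, against 1.33% of all genes, the guanylate-binding proteins Gbp2, at 1.65 (adjusted p = 0.00573), and Gbp5, at 1.08 (adjusted p = 0.0234), and the transcription factor Irf1, at 1.41 (adjusted p = 0.00243, edgeR). In the PC 3 of 16 were higher, against 9.85% of all genes, the GTPases Iigp1, at 3.44 (adjusted p = 0.0230), Gbp2, at 1.72 (adjusted p = 0.0174), and Irgm2, at 1.13 (adjusted p = 0.0287, edgeR). Of 12 NF-κB targets, 1 was higher in the spleen, the adhesion molecule Icam1, at 1.43 (adjusted p = 0.0336, edgeR). Without the NFKBIE-wt library labelled spleen replicate 4, 6 of 16 and 4 of 12 were higher in the spleen, against 2.86% of all genes. In the PC 3 of the 12 were, Ebi3, a cytokine subunit, at 1.72 (adjusted p = 6.64e-06), and the anti-apoptotic paralogs Bcl2a1b, at 1.34, and Bcl2a1d, at 1.26 (adjusted p = 0.00559 and 0.00601, edgeR), which are near-identical copies whose reads may have been split. In vitro 0 of both lists were called, with 0 and 1 at an unadjusted p under 0.05.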

How the data were processed

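The mRNA libraries of 22 samples were sequenced as read pairs. The authors estimated transcript abundance with Salmon 1.8 on GRCm39, per the submitters' processing notes, which also name CASAVA and DESeq2, and deposited 1 table that holds the estimated counts (expected counts) of each transcript, not normalized. Of its 62492 transcripts, each with a value above 0 in 5 or more samples, 62147 matched the GENCODE annotation of the same build and the rest held 0.619% of counts. Salmon divides reads between transcripts, and 69.5% of values were not whole. Counts were summed per gene and rounded before any test.

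Groups came from the sample titles. NFKBIE-ko titles and sources were followed where the description begins with the other genotype, and the tissue label, blood throughout, was not used. Totals were 24036386 to 26580957 per library, and replicates differed by more than sampling noise (chi-square per degree of freedom 7.22 to 199 over 30 pairs).

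Each comparison used edgeR 4.0.16 (quasi-likelihood, robust, filter on low counts, TMM) with limma 3.58.1 in R 4.3.3, per compartment for the genotypes, over the 11 NFKBIE-wt samples for the compartments and over all 22 samples for interactions. A call needed a Benjamini-Hochberg adjusted p below 0.05 over all genes tested and a log2 fold change beyond 1. DESeq2 1.42.0 was an alternative. Correlations and figures used Python 3.11.15, scipy 1.17.1 and matplotlib 3.10.9. Correlations within a compartment are not given, because they pool the genotypes, which form clusters. The tests were checked on simulated counts.

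The named genes were the 6 members, their receptors (1 is not reported here), the 2 called genes with the largest fold change per direction among other chemokines, up to 3 per pathway list, and the 3 genes most like each member. The members and lists were chosen with earlier results of these data known. Alternatives were RLE size factors, no or a stricter filter, DESeq2, the most abundant transcript per gene, the replicate number as a block, a fit of all samples, other scales and marker means for the correlations, and each library left out.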

Additional observations from a re-analysis of the deposited data

Results flagged for a closer look

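The effect of NFKBIE-ko differed between compartments by the interaction test of edgeR in 4 cases, each on the log2 scale over all 22 libraries. It was higher in the PC than in vitro for Cxcl9, by 10.25, and for Csf1, by 1.29. It was higher in the spleen than in vitro for Ccl3, by 5.19, and for Ccl4, by 4.74. Without the 2 libraries that went against their labels, the difference of Csf1 between PC and in vitro was 1.43 (adjusted p = 0.0118, edgeR), those of Ccl3 and Ccl4 were 4.02 and 3.58 and no longer passed, and that of Cxcl9 could not be estimated, because every culture left had 0 counts. Of 24 groups of 4 samples, taken per gene in the 4 tissue groups, 0 had a sample standing apart by Dixon's criterion. With 4 values this criterion needs a very wide gap, and the groups include the NFKBIE-wt library labelled spleen replicate 4. The 0 thus does not show that every library belongs with its group.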

How the results depend on the processing

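In the spleen, 4 of 6 genes were higher in NFKBIE-ko samples, 6 by DESeq2 and in the fit of all samples, 0 when the most abundant transcript stood for each gene and 0 with the replicate number as a block. Deviations of same-numbered samples correlated at -0.267 to 0.0829 between the genotypes in the spleen, -0.162 to -0.0188 in the PC and -0.0192 to 0.133 in vitro, and at 0.00109 to 0.149 between NFKBIE-ko spleen and PC and -0.201 to 0.151 between NFKBIE-wt spleen and PC. NFKBIE-wt cultures correlated at -0.307 to 0.431 with spleens and -0.0812 to 0.105 with PC samples. No comparison had every pair above 0.1, so that the numbers were not taken as pairs. Over all genes the block left 42 higher in the spleen where 165 were called without it. With 1 library left out, the number of the 6 called higher was 0 to 6 in the spleen and 2 to 3 in the PC. In the PC the call of Ccl5 was also lost without a filter, by transcript, with the block and in the fit of all samples. Between NFKBIE-wt spleen and PC, the number lower was 0 by transcript, 0 with the block and 0 to 1 with 1 library left out, and the number higher was 0 to 1, Cxcl10 at 2.01 (adjusted p = 0.0322, edgeR) without NFKBIE-wt PC replicate 2. Between PC and in vitro, the number higher was 0 by transcript, 0 with the block, 3 without the 2 doubted libraries and 0 to 1 with 1 left out, and the number lower was 1 by DESeq2, 1 in the fit of all samples and 0 to 1 with 1 left out, in each case Cxcl10. The number with a higher effect in the spleen than in vitro was 1 without a filter, 5 by DESeq2, 0 by transcript, 0 with the block, 1 without the doubted libraries and 0 to 4 with 1 left out, and for PC against in vitro 4 by DESeq2, 0 by transcript, 1 without the doubted libraries and 0 to 5 with 1 left out. Relations past the threshold with Cd3e were 0 on CPM and 3 with the marker mean, and with Adgre1 1 with the marker mean and 0 to 1 with 1 library left out, Ccl3 at r = -0.825 (adjusted permutation p = 0.0483) without NFKBIE-ko spleen replicate 2. Per kilobase of its longest transcript, Cxcl10 in NFKBIE-ko spleens was at 3.91 CPM. Small values changed sign. By transcript these were Cxcl10 in the PC (0.092, and 0.079 with the block), Csf1 in NFKBIE-wt spleen or PC over in vitro (0.031 and 0.017) and the Csf1 effect of spleen over PC (0.037), and without the doubted libraries Csf1 in NFKBIE-wt spleen over PC (-0.061). With 1 library left out, the genotype difference of Cxcl10 was -0.44 to 0.64 in the PC and -0.68 to 0.11 in vitro, that of Csf1 in vitro -0.092 to 0.14, the NFKBIE-wt differences of spleen over in vitro -0.61 to 0.18 for Cxcl10 and -0.24 to 1.11 for Ccl3, Csf1 in spleen over PC -0.074 to 0.18, and the Cxcl10 effect of PC over in vitro -0.22 to 1.08. Of the correlations, r of Cxcl9 and Adgre1 was -0.161 at a pseudocount of 0.1, on CPM r was -0.650 for Csf1 and Adgre1, -0.166 for Cxcl9 and Cd3e and -0.206 for Cxcl10 and Cd3e, and without the 2 farthest samples -0.135 for Cxcl10 and 0.200 for Csf1 with Cd3e. With the mean of the macrophage markers, r was 0.408 for Ccl3, 0.282 for Ccl4, 0.566 for Ccl5, 0.202 for Cxcl10 and -0.140 for Csf1. With 1 library left out, r with Cd3e was -0.193 to 0.417 for Cxcl10, -0.0333 to 0.679 for Ccl3 and -0.440 to 0.122 for Csf1, and with Adgre1 -0.669 to 0.159 for Ccl5 and -0.118 to 0.500 for Cxcl9. The cause of these changes was not tested. Counts over all genes moved as well, in the spleen from 165 higher and 193 lower to 376 and 348 by DESeq2 and 325 and 330 in the fit of all samples, in vitro from 4 and 0 to 69 and 89 by DESeq2, and for the effect of spleen over in vitro from 26 and 17 to 535 and 87. Depth limits Cxcl9 in NFKBIE-wt samples and Ccl3, Ccl4, Ccl5 and Cxcl9 in vitro, where several libraries held 3 counts or fewer.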
